A study of Mus musculus with 6 samples.

Results

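The genes described here are 6 genes of the epicardial and fibroblast lineage of the heart, Tbx18 (ENSMUSG00000032419), Wt1 (ENSMUSG00000016458), Tcf21 (ENSMUSG00000045680), Aldh1a2 (ENSMUSG00000013584), Pdgfra (ENSMUSG00000029231) and Pdgfrb (ENSMUSG00000024620). They were taken by gene ID for their known roles and not by a rule on their values, though earlier results of these data were known. They are 6 of 48505 genes and 1237 of 5193362 windows in the deposited tables. All 6 passed the filter on low levels, a mean of at least 10 reads over the libraries after the authors' scaling (normalized reads, each the reads divided by 1 factor per library), as did 18566 genes in all. The libraries hold RNA fragments pulled down (immunoprecipitated, IP) with an antibody against N6-methyladenosine (m6A), a methyl mark on RNA, from pooled hearts of male and female wild-type FVB/NJ mouse fetuses (m6A-RIP-seq).

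In the nano-TiO2 group (3 libraries), dams aged 10 weeks breathed an aerosol of engineered titanium dioxide nanoparticles at a target of 12 mg/m3. In the sham group (3 libraries), dams of the same age and strain breathed filtered air. Exposure lasted 360 minutes a day on 6 days spread over 8 days from gestational day 5, and fetal hearts of both groups were taken on gestational day 15. Which litters went into which pool is not labelled, and p-values therefore measure only the spread between these 6 samples, which may be technical. In a whole heart, fewer cells of a type and less RNA per cell cannot be told apart, and the pull-down alone does not separate more methylation from more RNA.

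The epicardium is the cell layer that covers the heart. During development some of its cells lose their epithelial character, move into the heart muscle and give rise to most cardiac fibroblasts and to many of the mural cells, the smooth muscle cells and pericytes that wrap vessels. Tbx18 (a T-box factor), Wt1 (a zinc finger factor) and Tcf21 (a basic helix-loop-helix factor) are transcription factors of the epicardium, and Tcf21 is needed for cardiac fibroblasts to form. Aldh1a2 is an enzyme of the epicardium that makes retinoic acid, a signalling molecule. Pdgfra and Pdgfrb are receptor tyrosine kinases for platelet-derived growth factors, Pdgfra known as a marker of fibroblasts and Pdgfrb of mural cells.

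Promoters are shown for Tbx18 and Pdgfra, the genes of the 6 with the largest rises in IP level, and for Aldh1a2, which holds a WT1 motif, since 3 of the genes encode DNA-binding factors of known motif. They come from RefSeq, build GRCm38.p6, which is not the build of the deposited tables, GRCm39, and 4 of the 6 genes matched the promoter table (all but Wt1 and Pdgfrb). Each runs from 250 bases before to 50 bases after the start of transcription and is read 5′ to 3′ on the strand of the gene, and capitals mark motifs. Aldh1a2 lies on the + strand at chr9:71215539-71215838, Tbx18 on the - strand at chr9:87731211-87731510 and Pdgfra on the + strand at chr5:75152001-75152300.
Aldh1a2: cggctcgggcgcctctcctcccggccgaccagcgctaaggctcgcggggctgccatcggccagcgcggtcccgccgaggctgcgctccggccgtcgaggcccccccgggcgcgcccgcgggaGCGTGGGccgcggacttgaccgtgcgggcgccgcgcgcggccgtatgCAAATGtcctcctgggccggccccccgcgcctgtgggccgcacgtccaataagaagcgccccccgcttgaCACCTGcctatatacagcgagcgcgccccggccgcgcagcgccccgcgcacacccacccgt
Tbx18: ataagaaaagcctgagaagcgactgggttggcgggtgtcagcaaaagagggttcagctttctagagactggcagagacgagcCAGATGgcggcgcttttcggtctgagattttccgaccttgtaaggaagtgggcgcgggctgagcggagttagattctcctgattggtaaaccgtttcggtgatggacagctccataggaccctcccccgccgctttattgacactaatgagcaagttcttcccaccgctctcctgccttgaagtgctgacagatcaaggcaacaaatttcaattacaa
Pdgfra: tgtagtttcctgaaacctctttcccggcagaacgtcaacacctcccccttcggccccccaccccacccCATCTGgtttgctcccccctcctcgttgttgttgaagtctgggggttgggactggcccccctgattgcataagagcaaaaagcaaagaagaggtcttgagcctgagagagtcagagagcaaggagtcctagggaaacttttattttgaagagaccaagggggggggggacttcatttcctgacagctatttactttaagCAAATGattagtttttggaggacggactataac
The Aldh1a2 promoter held the WT1 core GCGTGGG, whose first base lay at position -128 from the start, and E-boxes (CANNTG, the motif of basic helix-loop-helix factors) at -81 and -11. The Tbx18 promoter held 1 E-box at -168, and the Pdgfra promoter held E-boxes at -182 and 18. Tcf21 held none of the motifs searched, which also included the T-box half-site AGGTGTG, and that half-site was in none of the 4 promoters. Both strands were searched. Among all 32851 promoters of that length, 5.04% held GCGTGGG, 5.84% held AGGTGTG and 72.3% held an E-box, so an E-box is common in any such window. The Aldh1a2 promoter is 78% G or C, against a median of 52.7% over all promoters. These shares are therefore not those of promoters alike in base content. A match describes the letters only.

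The files hold 20205024, 24031476 and 28251706 reads in nano-TiO2 replicates 1, 2 and 3, against 30862986, 31523675 and 22151447 in sham replicates 1, 2 and 3. These are reads recovered from the deposited windows, so reads outside the windows are not included. The 4 genes with the most reads took 13.6% ± 5.09 of them in nano-TiO2, against 25.95% ± 8.08 in sham (SD, n = 3 each). The lineage genes took a small part, 0.0104%, 0.0167% and 0.0126% of these reads in nano-TiO2 against 0.00768%, 0.00535% and 0.00544% in sham. The symbols of the 6 genes came with their selection. No table at hand pairs the other gene IDs with symbols, so related genes and markers of cardiomyocytes, blood or other cells were not analysed here and the labelled tissue was not checked against its markers.

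Per window, which allows genes of different length to be compared, Pdgfrb had the highest level, 4.38 ± 1.19 normalized IP reads in nano-TiO2 and 3.72 ± 0.449 in sham libraries (SD, n = 3 each). Tcf21 followed with 3.59 ± 0.690 in nano-TiO2 and 2.94 ± 1.73 in sham, and Aldh1a2 with 3.50 ± 0.283 in nano-TiO2 and 2.75 ± 0.397 in sham. In both groups the libraries of Tcf21 overlapped those of Pdgfrb and of Aldh1a2, so Tcf21 did not differ from either gene beyond the spread. Tbx18 had 2.50 ± 0.201 per window in nano-TiO2 and 1.11 ± 0.115 in sham, below Aldh1a2 in every library. Wt1, with 1.35 ± 0.213 in nano-TiO2 and 0.719 ± 0.104 in sham, lay below Tbx18 in every library. Pdgfra came last, with 1.08 ± 0.399 in nano-TiO2 and 0.370 ± 0.0538 in sham. It lay below Wt1 in every library, though the ranges of the genes overlapped in nano-TiO2. Averaged over the libraries, the 6 genes lay between percentiles 33.0 (Pdgfra) and 68.3 (Pdgfrb) of the per-window levels of all genes tested, so none was rare or abundant.

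Of the 6 genes, 3 rose in IP level in nano-TiO2 fetal hearts: Pdgfra by 2.79-fold, Tbx18 by 2.25-fold and Wt1 by 1.87-fold. Tcf21, Aldh1a2 and Pdgfrb did not pass the test, and 0 of 6 fell. The level is the sum of normalized IP reads over a gene's windows, tested across all 18566 genes with limma on log2(value + 1) and Benjamini-Hochberg adjustment at 0.05. Of all genes tested, 24.0% rose and 12.0% fell, so a rise was common in these libraries. The median log2 change was 0.67 over the 6 genes and 0.13 over all genes tested. In 4 of the 6 genes every nano-TiO2 library lay above every sham library, as it did in 30.9% of all genes tested.

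Tbx18, which marks the epicardium from its precursor stage on, had 435, 467 and 511 normalized IP reads in nano-TiO2 replicates 1, 2 and 3, against 192, 233 and 200 in sham replicates 1, 2 and 3. The nano-TiO2 libraries lay close together and all stood well above the sham libraries. The log2 change was 1.17 ± 0.16 (SE), with an adjusted p of 0.00122 in limma. Tbx18 passed the test under each of the 20 other settings tried, with log2 changes of 0.82 to 1.67.

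Wt1, a regulator of the epicardial transition to mesenchyme, had 309, 395 and 299 normalized IP reads in nano-TiO2, against 207, 166 and 159 in sham. The groups did not overlap, and nano-TiO2 replicate 2 was the highest of the 6 libraries. The log2 change was 0.91 ± 0.19 (SE), with an adjusted p of 0.00627 in limma. The call was lost with quantile normalization (0.56, adjusted p 0.0555). It was also lost when the trend of each library with gene length, taken as the number of windows, was removed (0.40, adjusted p 0.136).

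Tcf21 had 302, 291 and 408 normalized IP reads in nano-TiO2, against 454, 148 and 218 in sham. Sham replicate 1 was the highest of all 6 libraries and the other sham replicates were the lowest, so the groups overlapped. The log2 difference was 0.43 ± 0.36 (SE), with an adjusted p of 0.390 in limma. It was 0.88, with an adjusted p of 0.0367, without sham replicate 1, and 0.069 without sham replicate 2, so single sham libraries decided its size. The span of Tcf21 on the genome, introns included, overlaps that of the predicted gene Gm10824. Whether a counted window lies in the overlap was not checked, and the strand setting of the counting is not given. Whether reads of Gm10824 were counted for Tcf21 is therefore not known.

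Aldh1a2 had 286, 333 and 325 normalized IP reads in nano-TiO2, against 265, 272 and 207 in sham. The nano-TiO2 libraries were all higher, but by little: the lowest of them exceeded the highest sham library by less than the SD within either group. Its log2 difference was 0.35 ± 0.17 (SE), with an adjusted p of 0.149 in limma. With equal totals in every library it passed the test at 0.85, where the median gene was at 0.61. With the totals outside the 4 most abundant genes made equal it passed at 0.62, where the median gene was at 0.39. Under the other 17 of 19 alternative settings it did not pass, and with quantile normalization it was at 0.015, with an adjusted p of 0.953.

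Pdgfra had 296, 607 and 392 normalized IP reads in nano-TiO2, against 173, 133 and 139 in sham. The nano-TiO2 libraries spread widely, with replicate 2 the highest, and each was above all sham libraries. The log2 change was 1.48 ± 0.26 (SE), with an adjusted p of 0.00333 in limma, at percentile 95.1 of the changes of all genes tested. Without 1 library at a time it was 1.21 to 1.72 and passed each time. It has the most windows of the 6 genes, 400 (percentile 92.6 of the genes tested). Its change without the length trend was 0.69, with an adjusted p of 0.0705. Its span, introns included, overlaps the microRNA gene Mir7025, and whether a counted window lies there was not checked.

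Pdgfrb had 706, 1229 and 941 normalized IP reads in nano-TiO2, against 839, 897 and 705 in sham. All sham libraries lay within or at the edge of the nano-TiO2 range. Its mean was higher by 0.21 ± 0.21 (SE) on the log2 scale, with an adjusted p of 0.478 in limma. The difference was 0.70, with an adjusted p of 0.0345, with equal totals in every library.

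**Figure D1:**
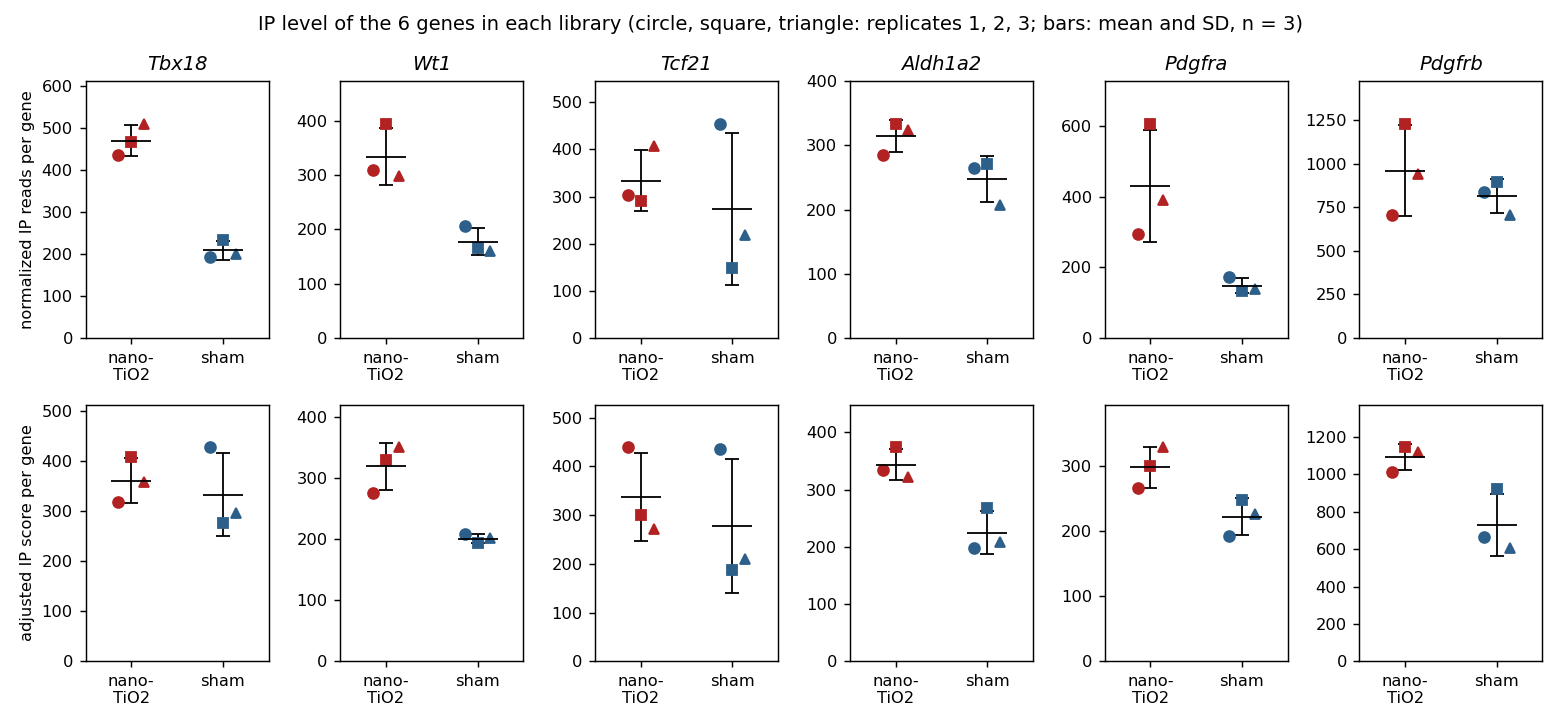
Normalized IP reads (upper row) and adjusted IP scores (lower row) summed over each gene's windows, in each nano-TiO2 (red, left) and sham (blue, right) library, with the mean and SD of 3 libraries. In normalized reads Tbx18, Wt1, Aldh1a2 and Pdgfra separate the groups, and in adjusted scores Wt1, Aldh1a2, Pdgfra and Pdgfrb do.

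The number of lineage genes that passed depended on how the libraries were scaled, which differed in the share of reads held by the 4 most abundant genes; the part of that share in the results was not tested. The median log2 change of all genes was 0.13 with the deposited scaling, 0.083 with TMM, -0.054 with quantile normalization, 0.39 with the totals outside 4 genes made equal, 0.61 with equal totals, and -0.069 with the length trend removed. Set against those medians, Tbx18, Wt1, Tcf21, Aldh1a2 and Pdgfra stood above the median gene in all 6 scalings. Pdgfrb stood near it with the deposited scaling and below it, at -0.23, with the length trend removed. The number of the genes that passed was 3 with the deposited scaling and with TMM, 2 with quantile normalization, 4 with equal totals outside 4 genes, 5 with equal totals and 1 with the length trend removed. Of all 18566 genes, in either direction, 36.0% passed with the deposited scaling, 37.1% with TMM, 31.8% with quantile normalization, 39.4% with equal totals outside 4 genes, 44.1% with equal totals and 25.2% with the length trend removed.

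**Figure D2:**
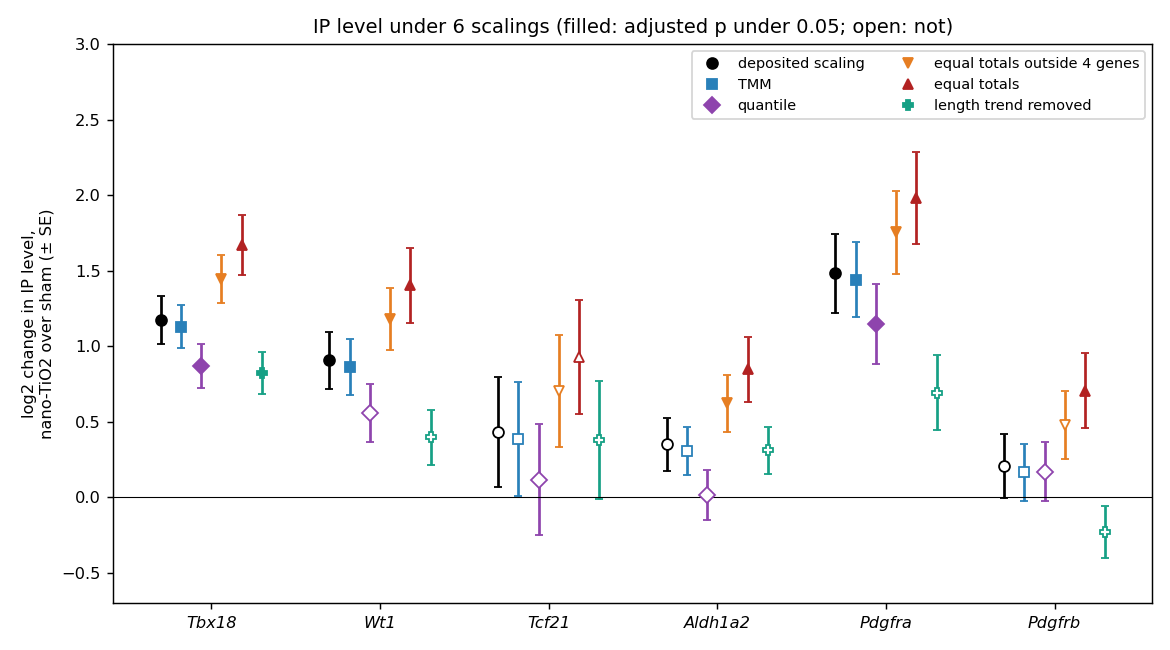
Log2 change in IP level, nano-TiO2 over sham, for each gene under 6 scalings, with the SE of the limma fit (n = 3 libraries a group). Filled points have an adjusted p under 0.05, and open points do not. Tbx18 is filled throughout, Pdgfra is open only with the length trend removed, and Tcf21 is open throughout.

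Ratios of IP reads between genes of the same library do not depend on a factor that is the same for all genes of a library, as in the deposited scaling, TMM and equal totals, whereas quantile normalization and the removal of the length trend move genes by different amounts. The ratio of Pdgfra to Pdgfrb reads was 0.419, 0.494 and 0.417 in nano-TiO2, against 0.206, 0.148 and 0.197 in sham, a ratio of group means of 2.41. Relative to Pdgfrb, the receptor linked to mural cells, the receptor linked to fibroblasts was higher in every nano-TiO2 library than in any sham library. The ratio of Tbx18 to Aldh1a2 reads was 1.52, 1.40 and 1.57 in nano-TiO2, against 0.725, 0.859 and 0.967 in sham. The ratio of Tbx18 to Wt1 reads, both of which rose, was 1.41, 1.18 and 1.71 in nano-TiO2 and 0.930, 1.40 and 1.25 in sham, and the groups overlapped. Of the 15 pairs of genes, 8 had ratios of reads that did not overlap between the groups, in either direction, against 46.4% of all pairs of tested genes with reads in every library. Each of these 8 pairs set Tbx18, Wt1 or Pdgfra against a gene that did not pass the test or, in 1 case, Wt1 against Pdgfra. With 3 against 3 libraries an exact two-sided permutation test cannot give a p below 0.1, and none was made on these ratios.

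The authors also deposited adjusted values, which equal the normalized ones divided by 1 factor per gene and library and then rounded to whole numbers. What the factor was made from is not stated. In these scores 0 of 6 genes passed limma at an adjusted p of 0.05, as did 0 of 19361 genes tested, so the percentage called was 0 in both. At an unadjusted p under 0.05, 4 of the 6 were higher in nano-TiO2 (Wt1, Aldh1a2, Pdgfra and Pdgfrb) and 0 were lower, against 16.5% of all genes higher and 2.01% lower. The groups did not overlap for the same 4 genes, all higher in nano-TiO2, as was the case for 19.4% of all genes tested. The median log2 difference was 0.51 over the 6 genes and 0.17 over all genes.

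After the adjustment Tbx18 no longer separated the groups. Its adjusted score was 319, 408 and 358 in nano-TiO2, against 428, 277 and 296 in sham, where replicate 1 was the highest of all. The log2 difference was 0.14 ± 0.19 (SE), with an adjusted p of 0.713 in limma, and it was below 0 under TMM (-0.024), quantile normalization (-0.044) and array quality weights (-0.032). The ratio of Tbx18 to Wt1 in adjusted score was 1.16, 1.24 and 1.02 in nano-TiO2, against 2.06, 1.44 and 1.47 in sham. That was the only one of the 15 pairs whose ratios of adjusted scores did not overlap between the groups, against 16.5% of all such pairs of genes.

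Wt1 had adjusted scores of 276, 330 and 350 in nano-TiO2, against 208, 193 and 201 in sham. The sham libraries had an SD of 7.51 and the groups stood clear of one another. On the log2 scale it was higher by 0.66 ± 0.16 (SE), with an unadjusted p of 0.00165 and an adjusted p of 0.179 in limma. Wt1 was thus higher in nano-TiO2 both before and after the adjustment, past the threshold only before it.

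Tcf21 had adjusted scores of 439, 300 and 271 in nano-TiO2, against 436, 188 and 211 in sham. Replicate 1 of each group stood far above the other replicates, and the groups overlapped. On the log2 scale they differed by 0.35 ± 0.30 (SE), with an adjusted p of 0.546 in limma, and it was -0.18 with array quality weights.

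Aldh1a2 had adjusted scores of 335, 374 and 322 in nano-TiO2, against 198, 268 and 209 in sham. All nano-TiO2 libraries were higher by a margin wider than in the normalized reads. Aldh1a2 differed by 0.62 ± 0.17 (SE) on the log2 scale, with an unadjusted p of 0.00355 and an adjusted p of 0.179 in limma. Pdgfrb had adjusted scores of 1014, 1144 and 1121 in nano-TiO2, against 663, 920 and 608 in sham, and its groups did not overlap, unlike in normalized reads. Its log2 difference was 0.60 ± 0.15 (SE), with an unadjusted p of 0.00255 and an adjusted p of 0.179.

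Pdgfra had adjusted scores of 265, 300 and 328 in nano-TiO2, against 192, 248 and 226 in sham. The libraries separated by a small margin, and the separation depended on rounding: with the scores rebuilt without rounding, from factors known here to within 0.20 of their value, they were 264, 354 and 322 in nano-TiO2 and 191, 267 and 238 in sham, which overlap. The log2 difference in the deposited scores was 0.42 ± 0.17 (SE), with an unadjusted p of 0.0275 and an adjusted p of 0.226 in limma. The Pdgfra to Pdgfrb ratio, separated in reads, overlapped in adjusted score, at 0.261, 0.262 and 0.293 in nano-TiO2 and 0.290, 0.270 and 0.372 in sham.

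With array quality weights, which give less weight to libraries that fit poorly, 4 of the 6 genes passed in adjusted score (Wt1, Aldh1a2, Pdgfra and Pdgfrb), against 25.9% of all genes tested. Without sham replicate 2, 3 passed, against 9.79% of all genes tested: Wt1 had an adjusted p of 0.0441, Aldh1a2 one of 0.0278 and Pdgfrb one of 0.0275. Neither setting called Tbx18 or Tcf21.

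The quantity the authors divided by was recovered as the ratio of normalized reads to adjusted score. It rose in nano-TiO2 for 2 of the 6 genes, Pdgfra by 2.09-fold and Tbx18 by 2.06-fold, against 15.6% of 13179 genes tested that rose and 20.1% that fell. For Tbx18 the ratio was 1.36, 1.14 and 1.43 in nano-TiO2, against 0.450, 0.842 and 0.676 in sham, with a log2 change of 1.04 ± 0.27 (SE) and an adjusted p of 0.0232 in limma. For Pdgfra it was 1.12, 2.02 and 1.20 in nano-TiO2, against 0.900, 0.534 and 0.616 in sham, with a log2 change of 1.06 ± 0.27 (SE) and an adjusted p of 0.0215. In both, all nano-TiO2 libraries lay above all sham libraries, as they did in 20.9% of all genes tested. Most of the IP change of Tbx18 and Pdgfra was thus in the divisor, while the divisor of Wt1 differed by 0.25 ± 0.19 (SE) on the log2 scale and overlapped between the groups.

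The divisor of Aldh1a2 was 0.853, 0.892 and 1.01 in nano-TiO2, against 1.34, 1.01 and 0.989 in sham, a log2 difference of -0.27 ± 0.14 (SE) with an adjusted p of 0.149. That of Pdgfrb was 0.697, 1.07 and 0.840 in nano-TiO2, against 1.27, 0.975 and 1.16 in sham, a log2 difference of -0.40 ± 0.19 (SE) with an adjusted p of 0.112. The means of both were lower in nano-TiO2, the groups overlapped, and the adjusted scores of both differed more than their normalized reads. That of Tcf21 was 0.689, 0.971 and 1.50 in nano-TiO2, against 1.04, 0.787 and 1.03 in sham, a log2 difference of 0.084 ± 0.26 (SE). The calls for the divisor rested on few libraries: without nano-TiO2 replicate 1 or 3, 0 of 6 genes passed and 0 genes passed in all, though the changes of Tbx18 and Pdgfra were then 0.98 to 1.22. Without nano-TiO2 replicate 2, Tbx18 passed, Pdgfra did not (0.79, adjusted p 0.0714), and Pdgfrb was lower in nano-TiO2, at -0.56 with an adjusted p of 0.0439. Tbx18 alone passed without sham replicate 2 or without sham replicate 3, and Pdgfra alone without sham replicate 1.

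**Figure D3:**
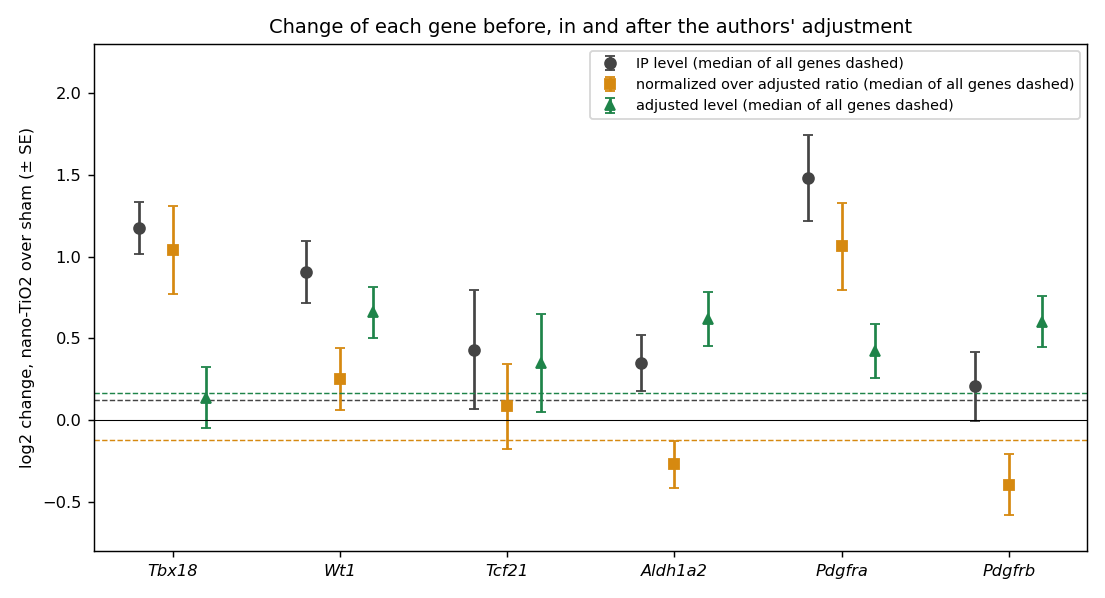
Log2 change, nano-TiO2 over sham, of IP level, of the normalized over adjusted ratio and of the adjusted score for each gene, with the SE of the limma fit (n = 3 libraries a group) and the median of all genes tested as dashed lines. For Tbx18 the ratio takes nearly the whole IP change and leaves 0.14, for Wt1 it takes 0.25 of 0.91, and for Aldh1a2 and Pdgfrb it lies below 0.

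Along the genes, IP reads gathered at places typical of each. The row order of the windows follows the genome: genes with a longer first window had 40.5% of their signal in the first 3 of 10 equal bins of rows and 22.9% in the last 3, the mirror of the other genes (24.8% and 39.0%). Tbx18 and Tcf21, on the - strand in the promoter table, have such a first window. Their rows were therefore turned, so that bins 1 to 10, each with nearly the same number of the windows of a gene, run 5′ to 3′ in every gene. The promoter table does not list Wt1 and Pdgfrb: their orientation was read from their regular first window alone, and the 5′ and 3′ ends named for them rest on it.

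Wt1 and Pdgfra were weighted to the 3′ end, where m6A is known to gather in many mRNAs. The last 3 bins held 72.4% ± 5.96 of the Wt1 reads in nano-TiO2, against 73.2% ± 1.87 in the sham libraries (SD, n = 3 each). For Pdgfra the share was 68.0% ± 7.44 in nano-TiO2 and 64.1% ± 5.69 in sham, and for Pdgfrb 61.7% ± 8.25 in nano-TiO2 and 67.0% ± 5.19 in sham. Aldh1a2 was more even, with 42.4% ± 6.02 there in nano-TiO2 and 41.0% ± 3.75 in sham.

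Tcf21 had reads at both ends and few between. The last 3 bins held 50.2% ± 3.90 of its reads in nano-TiO2 and 52.0% ± 2.32 in sham, and the first 3 bins 42.0% ± 2.88 in nano-TiO2 and 43.0% ± 2.41 in sham. The profile of Tbx18 peaked inside the gene, in bins 6 and 7 from the 5′ end, with 115 ± 7.76 reads in bin 6 in nano-TiO2 and 57.9 ± 13.1 in sham. Its last 3 bins held 28.3% ± 1.92 in nano-TiO2 and 25.3% ± 3.94 in sham. In all 6 genes these shares overlapped between the groups: the genes differed from each other in where their reads lay far more than the groups did.

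In each gene the 10 neighbouring windows with the most reads held more than an even spread would give. The excess was 5.43-fold in Pdgfra, 4.22-fold in Wt1, 3.41-fold in Pdgfrb, 2.89-fold in Tbx18, 2.42-fold in Tcf21 and 2.01-fold in Aldh1a2. These stretches were chosen for their height, so the excess is a description. Window starts are in nucleotides along the rows of a gene as deposited, which run 3′ to 5′ in Tbx18 and Tcf21. The Pdgfra stretch, whose windows begin at 9426 to 9651 of a gene whose last window begins at 9976, held 43.5, 75.3 and 65.2 normalized reads in nano-TiO2, against 19.8, 18.6 and 13.5 in sham. The Pdgfrb stretch, with window starts of 5001 to 5226, held 97.1, 142 and 178 in nano-TiO2, against 139, 173 and 100.0 in sham. The groups stood apart in the first and overlapped in the second, as they did in the gene totals.

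**Figure D4:**
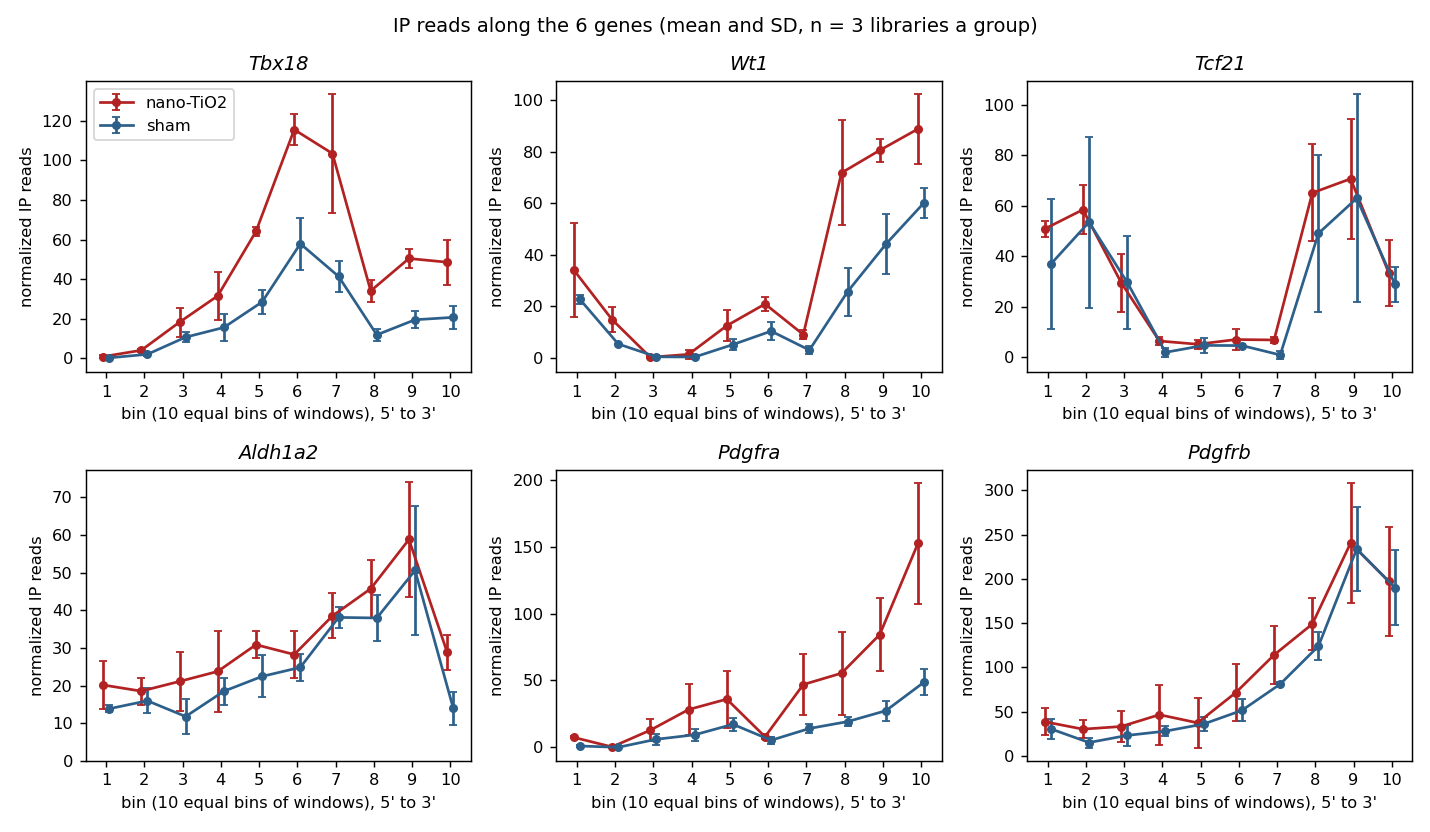
Normalized IP reads in each of 10 equal bins of a gene's windows, from the 5′ to the 3′ end, in nano-TiO2 (red) and sham (blue) libraries, as mean and SD of 3 libraries. Tbx18 peaks in bins 6 and 7, and Tcf21 has reads at both ends. Wt1, Pdgfra and Pdgfrb hold most reads in the last 3 bins. The nano-TiO2 mean lies above the sham mean in nearly all bins of each gene. In Pdgfrb the gap is small in bin 9 (241 against 234) and in bin 10 (197 against 190).

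Genes were also tested in bins, a window size added after the data were seen. Of 46 bins of the 6 genes that passed the level filter, 13 rose and 0 fell in limma at an adjusted p of 0.05, against 17.9% of 93373 bins of all genes that rose and 9.33% that fell. In Tbx18, 6 of 8 tested bins rose, all of those from bin 5 to the 3′ end, with log2 changes of 1.01 to 1.46. In Pdgfra, 4 of 6 rose, bins 7 to 10, by 1.35 to 1.60, and in Wt1, 2 of 6 rose, bin 8 by 1.47 and bin 9 by 0.89. The last bin of Wt1, which held the most reads, differed by 0.55, with an adjusted p of 0.0864.

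In Aldh1a2, 1 of 10 bins rose, the one at the 3′ end, by 1.03 with an adjusted p of 0.0411, and the other 9 differed by 0.0059 to 0.79 without passing. None of 6 bins of Tcf21 or of 10 bins of Pdgfrb passed. In Pdgfrb the log2 differences of the last 2 bins, where its reads were densest, were 0.016 and 0.027.

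Single windows held few reads. The genes had 31 windows that reached a mean of 10 normalized reads, of which 27 lay in Pdgfrb, 3 in Tcf21 and 1 in Tbx18. By limma 0 of the 31 passed, against 11.2% of 250317 windows tested, and 1 had an unadjusted p under 0.05, the Tbx18 window that begins at 1619, against 27.0% of all windows tested. That window held 20.1, 9.10 and 21.7 normalized reads in nano-TiO2, against 5.40, 7.67 and 8.11 in sham, with 6 to 27 reads in a library. All its sham values lay under the mean of 10 that the filter asks, so it reached the filter only through nano-TiO2 libraries. Its unadjusted p is therefore a description. At a mean of at least 1, 614 windows were tested and 0 passed, where 2.65% of 1024856 windows passed. Of the 614, 84 had an unadjusted p under 0.05, against 17.3% of all windows tested at that level. At the filter of 10, the test found 5.97% of 2-fold changes of windows in simulated data, so such changes could be missed.

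Relative to the rest of its gene, no stretch moved past the test. In simulated data that test found 4.48% of 2-fold changes of windows and 7.46% of those of bins, so such shifts could be missed. Of 4-fold changes it found 75.8% in windows and 78.8% in bins. In limma's diffSplice 0 of 30 windows passed, against 0.0465% of 249423 windows, and 0 had an unadjusted p under 0.05, against 3.26% of all windows. Of 46 bins 0 passed, against 0.518% of 91934 bins, and 1, in Aldh1a2, had an unadjusted p under 0.05, against 5.47% of all bins. The genes held 1625 (Wt1) to 5561 (Pdgfrb) reads in all 6 libraries together.

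The genes whose IP level followed the 6 most closely were ENSMUSG00000021277, with Pearson r = 0.998 to the mean standardised pattern of the 6 genes over 6 libraries, and ENSMUSG00000041747, with r = 0.997. The first had 139, 224 and 187 normalized reads in nano-TiO2, against 105, 82.1 and 71.6 in sham. Both share the libraries and their scaling with the 6 genes. Of 18560 other genes tested, 510 had an r over 0.95. Most genes thus did not reach that value, but a close likeness over 6 libraries was not confined to the genes named here.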

How the data were processed

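The authors deposited IP values per window, most windows starting 25 nucleotides apart, for 6 libraries. Total RNA, 3 µg a library, was fragmented per the labels' protocols into pieces of 250 to 350 nucleotides and bound to 5 µg of antibody, with 10 PCR and 8 indexing cycles. The tools HISAT2 2.2.1 and DESeq2 1.34.0, with Salmon 1.5.2, and the build GRCm39 are listed in the submitters' processing notes, without their role. No source used here gives how windows were counted, or on which strand. The deposited normalized signal was, in 100% of values (tolerance 0.0001), whole reads divided by 1 factor per library, so reads were recovered from it. The deposited adjusted score is that signal divided by 1 factor per gene and library, rounded, with 0 exceptions in 162014 pairs of gene and library. Input libraries were not used here.

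Windows were summed per gene. Genes, windows or bins (10 a gene) with a mean of at least 10 were tested with limma 3.58.1 (trend, diffSplice within genes; R 4.3.3) on log2(value + 1), two-sided, all 6 libraries and no covariates, with Benjamini-Hochberg adjustment over all features at 0.05. This scale understates changes of low genes. The normalized over adjusted ratio was tested in genes with an adjusted sum of at least 50 in every library. Since the values are not raw counts, edgeR 4.0.16 and DESeq2 1.42.0 on recovered reads were alternatives; they called 6932 and 7316 genes, against 6676 with limma. Scripts were tested on simulated data. The reads recovered from the deposited windows numbered 20205024 to 31523675 a library. PCR copies are not independent molecules.

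The rule for named genes took the 6 genes in all comparisons, the highest window of each and the 2 genes most like them. The members, lists and tests were chosen with earlier results of these data known. Lists of related genes and cell type markers could not be matched, because 0 rows of the reference pair an Ensembl ID with a symbol. Samples with the same replicate number had correlations of -0.37, 0.18 and 0.024 for numbers 1, 2 and 3. Nano-TiO2 and sham samples with different numbers ran from -0.56 to 0.52. The main fits used no pairing, and fits with the replicate number as a block are given below.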

Additional observations from a re-analysis of the deposited data

How the results depend on the processing

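Of the 6 genes, 3 passed in IP level, and 3 also with edgeR, DESeq2, TMM, either other pseudocount, either other filter and array quality weights. The count was 5 with equal totals in every library, 1 with the length trend removed, where Pdgfrb was at -0.23 on the log2 scale, and 1 of the 3 genes testable with the median of tested windows, where Tcf21 was at -0.17; the cause was not tested. In adjusted score 0 passed, and 4 with array quality weights, where Tbx18 was at -0.032 and Tcf21 at -0.18. Tbx18 was at -0.024 with TMM and -0.044 with quantile normalization. For the normalized over adjusted ratio 2 passed, and 1 of the 2 genes testable at an adjusted sum of at least 200. Leaving out 1 library at a time gave 3 to 4 genes in IP level, 0 to 3 in adjusted score (3 without sham replicate 2) and 0 to 2 in the ratio. In the ratio Tcf21 then ran between -0.21 (without nano-TiO2 replicate 3) and 0.35, and was at -0.049 without sham replicate 2. Windows called numbered 0, and 0 each time a library was left out, both in IP level and within genes, against 13 of 46 larger bins, 10 a gene, a size added after seeing the data, as were the fits on unrounded factors, which changed no call. Rounding blurs the divisor of Pdgfra by up to 0.20 of its value. With the replicate number as a block, 3 genes passed in IP level, 0 in adjusted score and 2 in the ratio. In that fit 0 windows passed in IP level and within genes, so the block changed no call. It did move the adjusted scores close to the threshold. Their adjusted p in limma went from 0.179 to 0.0515 for Pdgfrb, 0.0574 for Aldh1a2 and 0.0589 for Wt1. The SE of Tcf21 went from 0.30 to 0.16, with an adjusted p of 0.231.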
